A study of Mus musculus with 15 samples.

Results

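The 41 genes described here help proteins to enter the endoplasmic reticulum, to fold there and, when folding fails, to leave it for degradation. They were taken from a list of gene names chosen with earlier results of these data known. Their shares of calls and medians, set beside those of all genes below, are therefore descriptions and not independent tests. All 41 were found among the 32479 genes of the FPKM table, and all 41 were among the 18136 genes with enough reads to test. By role they fell into 11 chaperones and their partners, 6 disulfide isomerases, 10 genes of degradation, 10 genes of protein entry and signal peptide cleavage, and 4 genes of stress sensing. The last are the sensors Ern1, Eif2ak3 and Atf6 and the transcription factor Xbp1, grouped as sensors in the figures. RNA of the mouse submandibular gland was sequenced in 15 libraries. The control group held 5 untreated ICR mice, the model group 5 untreated NOD/LTJ mice, and the SJQYD group 5 NOD/LTJ mice given SJQYD. The labels give the genotype of all 3 groups as WT and give no age, sex, dose or length of treatment. NOD/LTJ is an inbred strain prone to autoimmune inflammation of the salivary glands, and ICR is an outbred stock, so strain and disease cannot be told apart when model is set against control. The labels do not say how the mice relate to each other, so p-values measure the spread between these samples.

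The endoplasmic reticulum receives secreted proteins through the Sec61 channel, cuts off their signal peptide, and folds them with chaperones and disulfide isomerases. Proteins that fail to fold are recognised by their sugars, moved back out and marked for the proteasome by the Hrd1 ubiquitin ligase complex, a route called ER-associated degradation. Ern1 (IRE1), Eif2ak3 (PERK) and Atf6 sense unfolded protein, and Xbp1, whose mRNA Ern1 splices, and Atf6 raise the transcription of many of the genes described here. Salivary acinar cells and plasma cells, which secrete large amounts of protein, are rich in this machinery.

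Xbp1 and Atf6 are known to act through short DNA elements, so the promoters of the members were searched for 3 of them on both strands: the ER stress response element ERSE (CCAAT, any 9 bases, CCACG), ERSE-II (ATTGG, any 1 base, CCACG) and the unfolded protein response element UPRE (TGACGTGG). RefSeq windows of 300 bases (build GRCm38.p6), from 250 bases before to 50 bases after a gene's start, were at hand for 34 of the 41 members. Atf6, Derl1, Hyou1, Manf, Sec61a1, Spcs3 and Ssr2 had none. Shown are the elements of 8 members whose levels are described below, 5′ to 3′ on the gene's strand, with the element in capitals.
Hspa5: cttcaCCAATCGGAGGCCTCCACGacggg
Canx: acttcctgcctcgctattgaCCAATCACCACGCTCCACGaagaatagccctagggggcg
Dnajc3: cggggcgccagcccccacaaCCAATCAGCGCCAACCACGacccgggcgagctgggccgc
Creld2: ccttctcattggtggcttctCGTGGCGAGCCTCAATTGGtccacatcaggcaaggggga
Syvn1: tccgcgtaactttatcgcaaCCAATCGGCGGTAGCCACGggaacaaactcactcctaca
Herpud1: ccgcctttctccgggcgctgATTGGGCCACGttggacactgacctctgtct
Txndc5: ggcctcgccgcTGACGTGGcgctagccgcc
Txndc11: tgaagtgtggcTGACGTGGagagtccgggt
The pieces lie at chr2:34772020-34772048, plus strand for Hspa5, chr11:50325780-50325838, minus strand for Canx, chr14:118937807-118937865, plus strand for Dnajc3 and chr15:88819500-88819558, plus strand for Creld2. Those of the other 4 lie at chr19:6046512-6046570, plus strand for Syvn1, chr8:94386357-94386407, plus strand for Herpud1, chr13:38528034-38528063, minus strand for Txndc5 and chr16:11134616-11134645, minus strand for Txndc11. The first 5 hold an ERSE, which in Creld2 reads on the opposite strand and so begins with CGTGG and ends with ATTGG. Herpud1 holds an ERSE-II, and Txndc5 and Txndc11 hold a UPRE. The pieces of Hspa5, Txndc5 and Txndc11 overlap an annotated exon that begins at another start.

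An ERSE was found in 9 of the 34 members with a window (Calr, Canx, Creld2, Derl3, Dnajc3, Hsp90b1, Hspa5, Pdia6 and Syvn1), against 37 of 27025 genes with a window (0.137%). ERSE-II was found in 2 of the 34 (Dnajb11 and Herpud1), against 0.0444% of all genes, and UPRE in 2 of the 34 (Txndc5 and Txndc11), against 0.714%. Hsp90b1 held 2 ERSE. The element of Syvn1 was the nearest of the ERSE to its start, 44 to 26 bases upstream, and the farther one of Hsp90b1 the most distant, 212 to 194 bases upstream. The members were listed as genes of this response, on many of which Xbp1 and Atf6 are known to act, and they are counted among all genes. An excess of these elements was therefore likely beforehand, and these shares are no independent test. A match of letters is a description and does not show that a factor binds there.

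**Figure D1:**
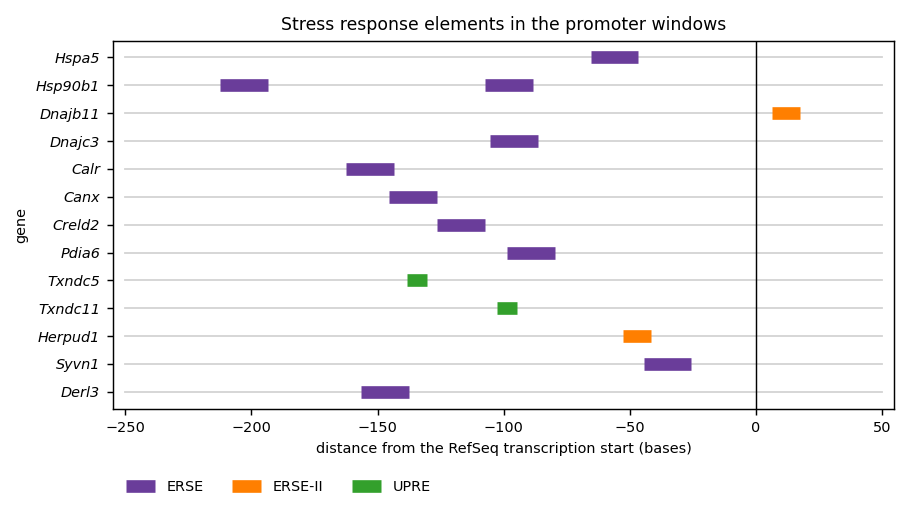
Position of ERSE, ERSE-II and UPRE matches in the 300-base promoter windows of the 13 members that hold one, with the distance from the RefSeq start in bases on the horizontal axis and 1 gene per row. All but the ERSE-II of Dnajb11, which lies 7 to 17 bases downstream, lie upstream of the start.

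Libraries held 39510018 to 68694263 counts. The acinar mucin-like transcript Mucl2 took 48.4% ± 5.07 of counts in the control, 37.3% ± 7.74 in the model and 36.8% ± 12.3 in the SJQYD libraries (SD, n = 5). Levels depended on how libraries were scaled, and are given as normalised read counts (CPM) after scaling by TMM, a method that sets the bulk of genes equal between libraries. The acinar markers Mucl2, Aqp5 and Bhlha15 were present in every library. Transcripts of the adjoining parotid gland (Amy1, Bpifa2, Smr3a and others, without Car6) summed to 44603 CPM in control 2, 143315 CPM in model 3 and 38410 CPM in SJQYD 1, and to between 10.5 and 17507 CPM in the other 12 libraries. SJQYD 3 had 1.01 CPM of Xist, which is made from the inactive X chromosome, and the other 14 libraries had 162 to 270.2 CPM. Fewer cells of a type and less RNA per cell cannot be told apart in such bulk samples.

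Per unit of gene length, in the authors' FPKM, the members spanned more than 2 orders of magnitude in the control libraries. P4hb, the protein disulfide isomerase, was highest at a mean of 168 FPKM, followed by the lectin chaperone Calr at 58.3 FPKM, the Sec61 channel subunit Sec61b at 53.9 FPKM and the derlin Derl3 at 47.2 FPKM. Hspa5 (BiP), the main Hsp70 chaperone of the compartment, stood at 37.8 FPKM. The sensors were among the lowest, with Eif2ak3 at 3.12 FPKM, Ern1 at 1.96 FPKM and Atf6 at 1.27 FPKM, while Xbp1 reached 33.9 FPKM. Together the members held 0.638% ± 0.0491 of all counts other than those of Mucl2 in the control, 0.557% ± 0.0734 in the model and 0.778% ± 0.121 in the SJQYD libraries (SD, n = 5). With Mucl2 counted, the order of control and model turned, with 0.328% ± 0.0262 in the control, 0.350% ± 0.0630 in the model and 0.502% ± 0.184 in the SJQYD libraries.

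**Figure D2:**
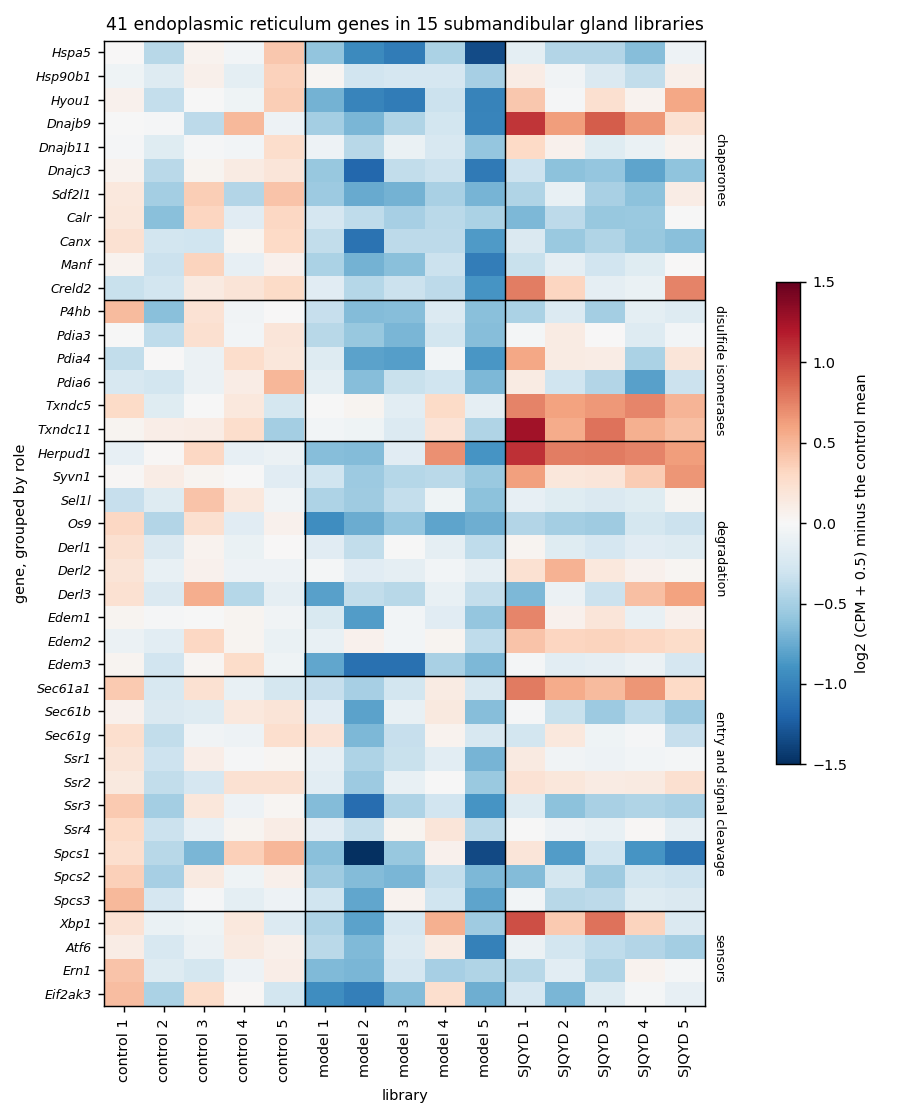
Level of each of the 41 members (rows, grouped by role) in each of the 15 libraries (columns), as log2(CPM + 0.5) minus the mean of the 5 control libraries on the TMM scale, blue for lower and red for higher. Most rows are blue in the model libraries on this scale (with library totals alone the median for model against control was 0.07), while Txndc5 is near its control level there, and in the SJQYD libraries Dnajb9, Txndc5, Txndc11, Herpud1 and Sec61a1 are red.

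Set against ICR glands, the untreated NOD/LTJ glands held less RNA of many members relative to other genes. On the TMM scale 13 of the 41 members were lower in the model glands and 0 were higher, while 28 were not called at an adjusted p under 0.05 (edgeR, quasi-likelihood test, Benjamini-Hochberg over all 18136 genes). Among all genes tested, 2.5% were called lower and 2.57% higher, 5.07% in all. The members' median log2 fold change was -0.44, against 0.03 over all genes, and 40 of 41 values were negative, but the members' median was 0.07 against 0.52 over all genes when libraries were scaled to their totals alone. In 5 members (Hspa5, Canx, Syvn1, Os9 and Edem3) the model and control libraries did not overlap, as in 5.77% of all genes. At an unadjusted p under 0.05, 27 members were lower and 0 higher. The share of all genes at that threshold is not given here, so this count has no background beside it.

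The chaperones held the largest share of these calls, with 6 of 11 lower. Hspa5 (ENSMUSG00000026864, chr2:34771970-34777547, plus strand), which binds exposed hydrophobic stretches and holds the sensors inactive, stood at 235, 175, 242, 227 and 310.2 CPM in control 1 to 5 and at 155, 121, 113, 168 and 91.8 CPM in model 1 to 5. Every model library lay below every control library. Hspa5 fell, with a log2 change of -0.87 ± 0.18 (SE; adjusted p = 0.0114, edgeR). Hyou1 (ENSMUSG00000032115, chr9:44379490-44392369, plus strand), an Hsp110-type partner that exchanges the nucleotide of Hspa5, stood at 43.5, 32.2, 41.5, 39.6 and 53.7 CPM in the control and 25.2, 20.6, 19.8, 33.2 and 20.5 CPM in the model libraries, and only model 4 reached into the control range. It fell, at a log2 value of -0.82 ± 0.17 (SE; adjusted p = 0.0114, edgeR). Manf (ENSMUSG00000032575), a small secreted factor that binds Hspa5, stood at 88.3, 67.8, 108, 78.1 and 88.8 CPM in the control and 61.2, 52.0, 55.1, 68.2 and 41.1 CPM in the model libraries. Its log2 fold change was -0.63 ± 0.14 (SE; adjusted p = 0.0178, edgeR), and the call was lost without model 2 (adjusted p = 0.0519). Model 4 and control 2 overlapped. The annotated genes Dcaf1 and Rbm15b overlap Manf and each have at least 10% of its counts, so its level is uncertain.

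Another 3 chaperone genes fell. Dnajc3, a J-domain co-chaperone of Hspa5 that also inhibits Eif2ak3, went from 99.1 ± 14.7 to 62.0 ± 16.2 CPM (SD, n = 5), a log2 change of -0.68 ± 0.17 (SE; adjusted p = 0.0279, edgeR). Canx, the membrane-bound lectin chaperone calnexin, went from 62.7 ± 12.0 to 40.8 ± 8.99 CPM without overlap (-0.62 ± 0.16; edgeR adjusted p = 0.0354). Sdf2l1, which works beside the J-domain proteins, went from 19.8 ± 5.90 to 12.1 ± 1.01 CPM (-0.71 ± 0.19; edgeR adjusted p = 0.0387). Leaving out 1 library ended each of these calls in some cases. That of Dnajc3 was lost without control 1, 3, 4 or 5, or model 1, 2 or 5 (highest adjusted p = 0.0733, without model 2). Canx lost its call without control 1, 4 or 5, or model 2 or 5 (highest adjusted p = 0.0974, without control 1), and Sdf2l1 without control 1, 3 or 5, or model 1, 2, 3 or 5 (highest adjusted p = 0.0984, without model 2). The chaperones that were not called were Hsp90b1 (GRP94), Calr, Dnajb9, Dnajb11 and Creld2. Of these, Hsp90b1 stood at 199 ± 31.7 CPM in the control and 166 ± 21.9 CPM in the model libraries, and Calr at 254 ± 64.0 and 187 ± 13.0 CPM (SD, n = 5).

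Among the disulfide isomerases, which form and rearrange the cross-links of secreted proteins, 1 of 6 was called lower. Pdia3 (ENSMUSG00000027248, chr2:121413775-121438687, plus strand), the isomerase that works with Calr and Canx on glycoproteins, stood at 195, 150.01, 232, 191 and 222 CPM in the control and 147, 132, 122, 161 and 125 CPM in the model libraries. Control 2 and model 4 overlapped. The log2 value of the change was -0.53 ± 0.13 (SE; adjusted p = 0.0239, edgeR), and the call was lost without control 1, 3 or 5, or model 2, 3 or 5 (highest adjusted p = 0.0644, without model 2). P4hb (ENSMUSG00000025130, chr11:120560298-120573253, minus strand), the most abundant isomerase, stood at 986, 458, 823, 682 and 711 CPM in the control and 556, 451, 455, 614 and 459 CPM in the model libraries and was not called. Pdia4 stood at 18.0, 23.5, 21.9, 28.2 and 26.3 CPM in the control and 20.3, 13.2, 12.9, 22.6 and 12.5 CPM in the model libraries, likewise not called. For both, the highest model library exceeded the lowest control library. Txndc5, a thioredoxin-domain isomerase also known from plasma cells, stood at 208 ± 32.8 CPM in the control and 208 ± 26.8 CPM in the model libraries (SD, n = 5).

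Of the 10 degradation genes 3 were lower, and the model and control libraries of all 3 did not overlap. Edem3 (ENSMUSG00000043019, chr1:151755371-151822051, plus strand), a mannosidase-family protein that trims the sugars of misfolded glycoproteins, stood at 41.1, 32.8, 40.9, 48.6 and 38.1 CPM in the control and 23.1, 18.1, 18.1, 28.3 and 24.9 CPM in the model libraries. Edem3 had a log2 change of -0.84 ± 0.13 (SE; adjusted p = 0.00241, edgeR). Os9 (ENSMUSG00000040462, chr10:127095650-127121131, minus strand), a lectin that hands such glycoproteins to the Hrd1 complex, stood at 146, 86.6, 139, 105 and 123 CPM in the control and 61.5, 70.3, 78.6, 67.7 and 70.6 CPM in the model libraries. The highest model library was model 3 and the lowest control library was control 2. The change for Os9 was -0.78 ± 0.13 on the log2 scale (SE; adjusted p = 0.00381, edgeR). Syvn1 (ENSMUSG00000024807, chr19:6046576-6053712, plus strand), the Hrd1 ubiquitin ligase itself, stood at 59.0, 63.3, 60.3, 58.5 and 52.1 CPM in the control and 47.4, 39.9, 43.6, 43.9 and 39.6 CPM in the model libraries. It fell, at a log2 value of -0.45 ± 0.11 (SE; adjusted p = 0.0276, edgeR), a call that was lost without control 1, 3 or 4, or model 2, 3 or 5 (highest adjusted p = 0.0766, without model 2), and its value was 0.04 when libraries were scaled to totals alone. Syvn1 overlaps Mrpl49 on the opposite strand, which has at least 10% of its counts, and the strand setting of the counting is not given in the sources used here. Herpud1, Sel1l, Edem1, Edem2 and the derlins Derl1, Derl2 and Derl3 were not called.

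Entry into the compartment and cleavage of the signal peptide gave 2 calls among 10 genes. Spcs2 (ENSMUSG00000035227, chr7:99837569-99863462, minus strand), a subunit of the signal peptidase, stood at 154, 85.0, 132, 115 and 127 CPM in the control and 83.3, 76.5, 74.6, 93.8 and 75.3 CPM in the model libraries. The change in Spcs2 was -0.60 ± 0.14 on the log2 scale (SE; adjusted p = 0.0223, edgeR), and control 2 lay among the model libraries. Ssr3 (ENSMUSG00000027828, chr3:65379655-65392623, minus strand), a subunit of the translocon-associated protein complex, stood at 169, 90.1, 145, 122 and 131 CPM in the control and 81.8, 58.2, 93.1, 105 and 69.8 CPM in the model libraries, with control 2 again inside the model range. Ssr3 changed by -0.69 ± 0.17 on the log2 scale (SE; adjusted p = 0.0289, edgeR). The call of Spcs2 was lost without control 1 or 3, or model 2, 3 or 5 (highest adjusted p = 0.0668, without control 1), and that of Ssr3 without control 1, 3 or 5, or model 1, 2 or 5 (highest adjusted p = 0.0904, without control 1). Ssr1, of the same complex as Ssr3, stood at 88.4, 61.7, 82.5, 75.9 and 78.7 CPM in the control and 70.8, 55.7, 61.1, 69.0 and 47.4 CPM in the model libraries and was not called. The 3 Sec61 subunits, Ssr2, Ssr4, Spcs1 and Spcs3 were not called either, and Spcs1 is uncertain because Glt8d1 overlaps it.

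Of the sensors, Ern1 was the member called. Ern1 (ENSMUSG00000020715, chr11:106394650-106487852, minus strand), the kinase and nuclease that splices Xbp1, stood at 31.9, 20.5, 19.6, 22.4 and 25.4 CPM in the control and 14.7, 14.5, 19.7, 16.5 and 17.1 CPM in the model libraries, which overlapped. The log2 fold change was -0.54 ± 0.15 (SE; adjusted p = 0.0421, edgeR), and the call was lost without control 1, 4 or 5, model 1, 2, 4 or 5, or SJQYD 2 or 5 (highest adjusted p = 0.126, without control 1). Eif2ak3 (ENSMUSG00000031668, chr6:70844515-70905245, plus strand), which slows translation, stood at 38.4, 19.9, 33.7, 28.2 and 22.9 CPM in the control and 14.3, 13.4, 17.5, 33.1 and 16.6 CPM in the model libraries, where model 4 stood above the other 4. A log2 fold change of -0.59 ± 0.24 (SE) was not called (edgeR adjusted p = 0.156). Atf6 (ENSMUSG00000026663, chr1:170704674-170867771, minus strand), whose cleaved part enters the nucleus, stood at 18.7, 14.6, 16.2, 19.0 and 18.2 CPM in the control and 12.9, 10.7, 14.9, 18.8 and 8.25 CPM in the model libraries (-0.40 ± 0.17, SE; adjusted p = 0.186, edgeR). Xbp1 (ENSMUSG00000020484, chr11:5520659-5525893, plus strand) stood at 187, 150.1, 155, 179.6 and 139.9 CPM in the control and 116, 92.3, 135, 233 and 111 CPM in the model libraries (-0.24 ± 0.24, SE; adjusted p = 0.611, edgeR). The highest Xbp1 level of both groups was that of model 4, and the gene counts do not separate spliced from unspliced Xbp1. With library totals alone the values of Atf6 and Xbp1 were positive, at 0.11 and 0.24.

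The number of members called depended on the scaling. With library totals alone, or with limma on the authors' FPKM values at a pseudocount of 1 or of 0.1, 0 members were called for model against control (1 higher, Txndc5, and 0 lower at an unadjusted p under 0.05), against 13 by edgeR with TMM and 15 by DESeq2, and on those scales the median of all genes was 0.28 to 0.52. The members' median less that of all genes ran from -0.56 to -0.23 over all alternatives. The count also fell to 5 without control 1, 7 without control 3, 7 without control 5, 4 without model 2 and 5 without model 5. The number of all genes called in these alternative fits is not given here, so the falls are not shown to be particular to the members.

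Treated and untreated NOD/LTJ glands differ by SJQYD in the labels. They also differed in genes of the circadian clock. Per2 stood at 2.64 ± 1.16 and 43.3 ± 11.0 CPM in the model and SJQYD libraries, and Arntl at 11.9 ± 5.78 and 0.915 ± 0.268 CPM (SD, n = 5). The labels give no hour of collection, and its part in this comparison was not tested. On the TMM scale 10 of the 41 members were higher in the SJQYD glands, 0 were lower and 31 were not called, where 1.91% of all genes were called higher and 0.838% lower, 2.75% in all (edgeR, adjusted p under 0.05). The members' median log2 fold change was 0.33, against -0.03 over all genes, and 39 of 41 values were positive. At an unadjusted p under 0.05, 22 members were higher and 0 lower, and DESeq2 called 15, all higher. For neither count is the share of all genes given here. The libraries of the 2 groups did not overlap in 14 members, as in 5.5% of all genes. Model against control and SJQYD against model share the model libraries, so a low value there enters both comparisons.

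**Figure D3:**
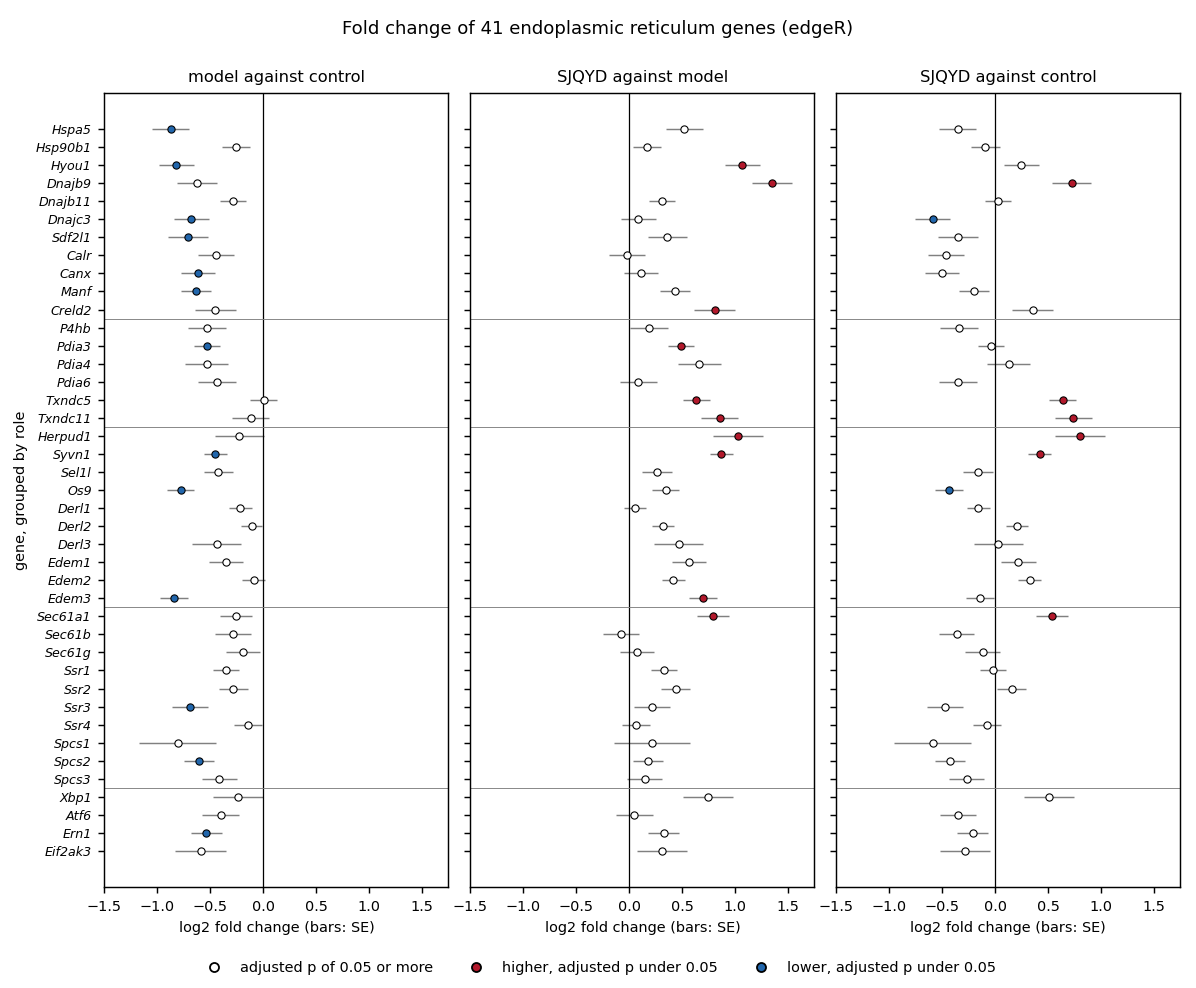
Log2 fold change with its SE (horizontal axis, edgeR with TMM) for each of the 41 members (vertical axis, grouped by role) in the 3 comparisons, filled where the adjusted p was under 0.05. Members called lie left of 0 for model against control (13 lower) and right of 0 for SJQYD against model (10 higher), while SJQYD against control has 6 higher and 2 lower, and with library totals alone the median for model against control turned positive (0.07).

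Among the chaperones, 3 of 11 were called higher. Dnajb9 (ENSMUSG00000014905, chr12:44205559-44210326, minus strand), a J-domain protein that feeds Hspa5 with misfolded proteins, stood at 7.52, 6.58, 7.88, 8.94 and 5.25 CPM in the model and 23.5, 17.2, 20.9, 17.5 and 12.9 CPM in the SJQYD libraries. All SJQYD libraries lay above all model libraries, and the log2 fold change of 1.35 ± 0.19 (SE; adjusted p = 0.000820, edgeR) was the largest among the members. Hyou1 stood at 54.9, 41.04, 49.0, 42.9 and 62.1 CPM in the SJQYD libraries, again above every model library. It rose, at a log2 value of 1.07 ± 0.17 (SE; adjusted p = 0.00212, edgeR) and was the 1 member called under each of the alternatives run for this comparison. Creld2, a stress-induced protein of the compartment, stood at 28.2, 23.5, 25.3, 24.0 and 17.0 CPM in the model and 54.5, 39.9, 29.0, 29.6 and 53.6 CPM in the SJQYD libraries. SJQYD 1 and 5 were the highest, and SJQYD 3 and 4 lay just above model 1. Its log2 fold change was 0.81 ± 0.20 (SE; adjusted p = 0.0334, edgeR), and the call was lost without model 2, 3, 4 or 5, or SJQYD 1, 2 or 5 (highest adjusted p = 0.0851, without SJQYD 1). Hspa5 stood at 212, 173, 173, 151 and 223 CPM in the SJQYD libraries, overlapping with model 1 and 4, and was not called (0.52 ± 0.18, SE; adjusted p = 0.135, edgeR).

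Of the 6 disulfide isomerases 3 were higher, all without overlap. Txndc5 (ENSMUSG00000038991) stood at 205, 212, 185, 252 and 188 CPM in the model and 345, 314, 323, 343 and 293 CPM in the SJQYD libraries. The log2 fold change was 0.63 ± 0.13 (SE; adjusted p = 0.0106, edgeR). Txndc11 (ENSMUSG00000022498, chr16:11074911-11134650, minus strand), a membrane-bound thioredoxin-domain protein, stood at 33.4, 32.6, 29.7, 39.6 and 25.0 CPM in the model and 82.4, 50.5, 60.6, 49.9 and 46.8 CPM in the SJQYD libraries, with SJQYD 1 the highest. It rose, at a log2 value of 0.86 ± 0.17 (SE; adjusted p = 0.0120, edgeR). Both members carry the UPRE shown above. Pdia3 stood at 191, 213, 197, 172 and 190.01 CPM in the SJQYD libraries (0.49 ± 0.12, SE; adjusted p = 0.0453, edgeR). Its call was lost without control 1 or 4, model 1, 2, 3 or 5, or SJQYD 1, 2, 3, 4 or 5 (highest adjusted p = 0.114, without model 3).

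Degradation gave 3 calls of 10. Syvn1 stood at 89.8, 66.1, 66.5, 76.6 and 93.0 CPM in the SJQYD libraries, all above the model range. Its log2 fold change of 0.87 ± 0.11 (SE) had the smallest adjusted p of the members (edgeR, 0.000547). Edem3 stood at 39.0, 35.8, 36.3, 37.7 and 33.5 CPM in the SJQYD libraries (0.70 ± 0.13, SE; adjusted p = 0.00859, edgeR), again without overlap. Herpud1 (ENSMUSG00000031770, chr8:94386438-94395377, plus strand), a membrane protein that brings the Hrd1 complex together, stood at 62.6, 61.8, 86.7, 157 and 52.4 CPM in the model and 209, 167, 168, 164 and 150.5 CPM in the SJQYD libraries. Model 4 lay above SJQYD 5, and the other model libraries lay below every SJQYD library. The log2 fold change was 1.03 ± 0.24 (SE; adjusted p = 0.0257, edgeR), and the call was lost without model 1, 2, 3 or 5, or SJQYD 1, 2 or 4 (highest adjusted p = 0.0712, without model 2). Os9, Derl2 and Edem2 did not overlap between the groups but were not called. Derl2 overlaps Mis12 and is uncertain.

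Of the entry genes 1 of 10 was called. Sec61a1 (ENSMUSG00000030082, chr6:88503579-88518905, minus strand), the channel-forming subunit, stood at 169.7, 152, 178, 234 and 182 CPM in the model and 369.9, 315, 298, 339 and 263 CPM in the SJQYD libraries, without overlap. It rose, at a log2 value of 0.79 ± 0.15 (SE; adjusted p = 0.00964, edgeR). Its partners in the channel were not called, with Sec61b at 82.8 ± 22.0 and 78.3 ± 12.4 CPM and Sec61g at 26.9 ± 6.40 and 28.4 ± 4.09 CPM in the model and SJQYD libraries (SD, n = 5).

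Neither the sensors Ern1, Eif2ak3 and Atf6 nor the transcription factor Xbp1 were called between SJQYD and model (edgeR), while Xbp1 and Ern1 were higher at an unadjusted p under 0.05. Xbp1 stood at 315, 212, 284, 203 and 139 CPM in the SJQYD libraries, of which SJQYD 1 and 3 were above all model libraries and SJQYD 5 near the model mean (0.74 ± 0.24, SE; adjusted p = 0.113, edgeR). Ern1 stood at 17.6, 21.0, 17.2, 24.5 and 23.1 CPM (0.32 ± 0.15, SE; adjusted p = 0.274, edgeR). Eif2ak3 stood at 23.3, 17.2, 24.3, 27.3 and 25.5 CPM (0.31 ± 0.24, SE; adjusted p = 0.584, edgeR). The SJQYD levels of Eif2ak3 all lay inside its model range (13.4 to 33.1 CPM). Those of Ern1 overlapped with both the model (14.5 to 19.7 CPM) and the control range (19.6 to 31.9 CPM). Atf6 stood at 16.2, 14.1, 13.1, 12.6 and 12.0 CPM (0.05 ± 0.17, SE; adjusted p = 0.936, edgeR).

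Without control 2, model 3 and SJQYD 1, the libraries richest in parotid transcripts, 4 members stayed called for SJQYD against model (Dnajb9, Hyou1, Syvn1 and Edem3), a choice made after seeing the data, and the median log2 fold change of the 41 members was 0.39, against 0.33 with all libraries. With library totals alone, and with both FPKM fits, 1 member (Hyou1) was called, and 19 were higher at an unadjusted p under 0.05, without a share of all genes beside them.

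**Figure D4:**
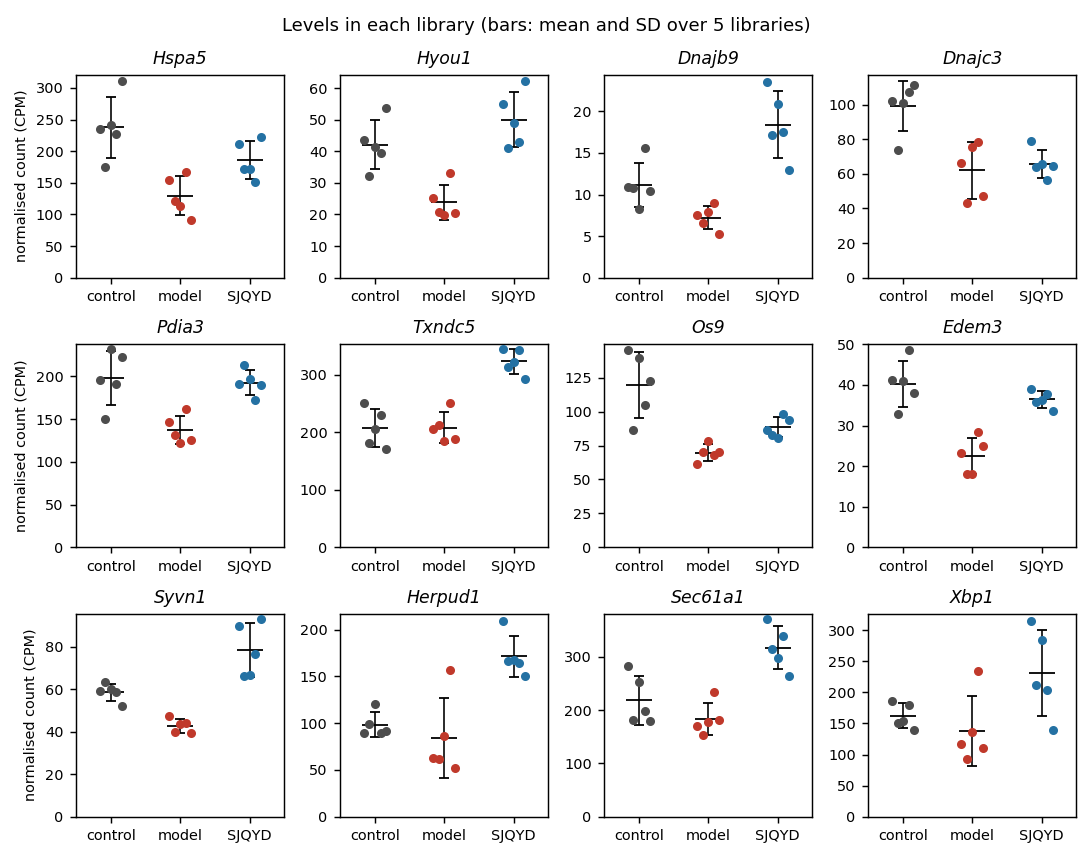
Normalised count (CPM, TMM scale, vertical axis from 0) of 12 members in each library, grouped as control, model and SJQYD (horizontal axis), with the mean and SD over 5 libraries. Hspa5 and Os9 are lower in every model than in every control library, and Dnajb9, Txndc5, Syvn1 and Sec61a1 are higher in every SJQYD than in every model library. The model values of Syvn1 stand lower than control on this scale and not with library totals alone.

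The comparison of SJQYD with control shows where the treated glands stood against ICR glands, with strain and treatment both different. Clock genes differed here too, with Per2 at 4.34 ± 1.61 and Arntl at 23.0 ± 10.7 CPM in the control libraries (SD, n = 5). On the TMM scale 6 members were higher, 2 were lower and 33 were not called (edgeR), where 5.22% of all genes were called higher and 5.9% lower, 11.1% in all. The median log2 fold change of the members was -0.12, against 0.04 over all genes, and it was 0.50 with library totals alone. Txndc5 had a log2 change of 0.64 ± 0.13 (SE; adjusted p = 0.00457, edgeR) and Txndc11 of 0.74 ± 0.17 (adjusted p = 0.0121). Their SJQYD libraries did not overlap with the control libraries, nor did those of Syvn1 and Herpud1, 4 members in all, as in 10.1% of all genes. Dnajb9 was higher by 0.72 ± 0.19 (adjusted p = 0.0202), with a control range of 8.20 to 15.5 CPM. Sec61a1 was higher by 0.54 ± 0.15 (adjusted p = 0.0330), with a control range of 179 to 282 CPM. Herpud1, with a control range of 89.7 to 121 CPM, was higher by 0.80 ± 0.23 (adjusted p = 0.0369), and Syvn1 by 0.42 ± 0.11 (adjusted p = 0.0223).

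Dnajc3 and Os9 were the 2 members called lower than control. Dnajc3 stood at 102, 74.0, 101, 107 and 111 CPM in the control and 79.0, 63.8, 65.5, 56.4 and 64.4 CPM in the SJQYD libraries, where control 2 and SJQYD 1 overlapped. Its log2 fold change was -0.59 ± 0.17 (SE; adjusted p = 0.0309, edgeR), and it was 0.07 with library totals alone. Os9 stood at 86.4, 82.8, 81.0, 98.3 and 94.0 CPM in the SJQYD libraries (-0.44 ± 0.13, SE; adjusted p = 0.0405, edgeR), and its value was 0.20 with library totals alone. Hspa5 (-0.35 ± 0.18, SE; adjusted p = 0.212, edgeR), Xbp1 (0.51 ± 0.24; 0.183), Atf6 (-0.35 ± 0.17; 0.209), Ern1 (-0.21 ± 0.15; 0.382) and Eif2ak3 (-0.28 ± 0.24; 0.489) were not called. With library totals alone the values of Hspa5, Atf6, Ern1 and Eif2ak3 were positive, at 0.29, 0.31, 0.38 and 0.35.

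Calls in this comparison depended on single libraries. Txndc5 and Txndc11 stayed called whichever library was left out. Dnajb9 lost its call without control 3 or 5, or SJQYD 1 (highest adjusted p = 0.0527, without control 5), and Syvn1 without control 5, or SJQYD 1 or 5 (highest adjusted p = 0.0635, without control 5). Sec61a1 lost it without control 2, 4 or 5, or SJQYD 1, 2 or 4 (highest adjusted p = 0.0901, without control 5), and Herpud1 without control 1, 2, 4 or 5, or SJQYD 1, 2, 3 or 4 (highest adjusted p = 0.0864, without control 5). Dnajc3 lost it without control 1, 3, 4 or 5, or SJQYD 2, 3, 4 or 5 (highest adjusted p = 0.0788, without control 5), and Os9 without control 1, 3 or 5, model 5, or SJQYD 1, 2, 3 or 5 (highest adjusted p = 0.126, without control 1). The number of members called was 5 without control 1, 11 (4 higher and 7 lower) without control 2, 5 without control 4 and 2 without control 5. It was 4 without SJQYD 1, 4 without SJQYD 2, 5 without SJQYD 3 and 5 without SJQYD 4. These counts have no number of all genes called beside them, so they are not shown to be particular to the members. Scaled to library totals alone, 14 members were higher and 0 lower. On that scale the members' median was 0.505, below the median of 0.63 over all genes, so these calls do not set the members above other genes. The share of all genes called on that scale is not given here. Without the 3 libraries richest in parotid transcripts 2 members were higher and 6 lower.

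Members with an ERSE in the promoter window were set beside those without. Those without included Herpud1 and Dnajb11, which hold an ERSE-II, and Txndc5 and Txndc11, which hold a UPRE. Of these, Herpud1, Txndc5 and Txndc11 were among the members called higher for SJQYD against model. Members with no window, such as Hyou1 and Sec61a1, were left out, so the split does not compare promoters with and without any stress element. For model against control 4 of 9 with an ERSE were lower (Hspa5, Canx, Dnajc3 and Syvn1) and 7 of 25 without, and the medians were -0.45 and -0.42. For SJQYD against model 2 of 9 with an ERSE were higher (Creld2 and Syvn1) and 6 of 25 without, with medians of 0.17 and 0.33. For SJQYD against control the medians were -0.35 and -0.07.

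Other genes of the compartment were taken from a list of 122, of which 117 were tested. For model against control 16 of 117 were lower and 0 higher (edgeR), where 2.5% of all genes were called lower and 2.57% higher. Their median was -0.27, which was 0.24 with library totals alone. Agr2, a disulfide isomerase relative of mucus-secreting cells, stood at 17.0 ± 6.82 CPM in the control and 0.613 ± 0.223 CPM in the model libraries (SD, n = 5; log2 fold change -4.79 ± 0.33; edgeR adjusted p = 1.88e-07), and at 0.650 ± 0.164 CPM in the SJQYD libraries. Ube2j2, a ubiquitin-conjugating enzyme of the compartment, fell, with a log2 change of -0.54 ± 0.11 (adjusted p = 0.00991). Creb3l2, a membrane-bound transcription factor, fell too, with a log2 change of -0.76 ± 0.16 (adjusted p = 0.0150; 0.0509 without control 1). Srp54c, of the signal recognition particle, gave -0.71 ± 0.15 (adjusted p = 0.0115), which is uncertain since Srp54a, Srp54b and Srp54c are near-identical copies. The count of 16 fell to 2 (1 higher and 1 lower) with library totals alone and ran from 4 without control 1 to 33 without control 2. The shares of all genes called in those fits are not given here.

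For SJQYD against model 12 of 117 listed genes were higher and 0 lower, with a median of 0.10, where 1.91% of all genes were called higher and 0.838% lower. DESeq2 called 22 (21 higher and 1 lower), without a share of all genes beside them. Fkbp14, a prolyl isomerase, went from 2.80 ± 0.427 to 6.29 ± 0.863 CPM (log2 fold change 1.17 ± 0.14; edgeR adjusted p = 0.000442). Ganab, the catalytic subunit of glucosidase II, rose by 0.57 ± 0.10 (adjusted p = 0.00465). Atf4, the transcription factor downstream of Eif2ak3, went from 127 ± 16.6 to 218 ± 45.5 CPM (0.78 ± 0.14; adjusted p = 0.00798), and Srp72, of the signal recognition particle, rose by 0.58 ± 0.11 (adjusted p = 0.00902). For SJQYD against control 8 of 117 were higher and 14 lower, with a median of -0.12, where 5.22% of all genes were called higher and 5.9% lower. With library totals alone 32 were higher and 1 lower, and the share of all genes called on that scale is not given here. With totals alone their median was 0.48, below the 0.63 over all genes. Besides Agr2, Bcap31, a membrane chaperone, was called lower, at -0.63 ± 0.10 on the log2 scale (adjusted p = 0.00148). Atf6b, a relative of Atf6, was higher by 0.51 ± 0.10 (adjusted p = 0.00351). Ddit3 (CHOP), a transcription factor induced by Atf4, went from 10.7 ± 1.64 CPM in the control to 26.1 ± 9.56 CPM in the SJQYD libraries (1.29 ± 0.24; adjusted p = 0.00359).

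Markers of cells that are rich in this machinery differed between groups as well. The summed level of 11 plasma cell genes ran over 33.7 to 1206 CPM in the control, 742 to 2384 CPM in the model and 958 to 2407 CPM in the SJQYD libraries. For model against control 2 of the 11 were higher (Irf4 and Tnfrsf13b), for SJQYD against model 0 (also 0 at an unadjusted p under 0.05), and for SJQYD against control 1 (Irf4). Of 8 acinar genes 2 were lower for model against control, Prlr and Bhlha15, a transcription factor of secretory cells, and 0 were called for SJQYD against model (2 higher at an unadjusted p under 0.05). Bhlha15 stood at 312 ± 21.2 CPM in the control, 209 ± 32.9 CPM in the model and 289.7 ± 61.3 CPM in the SJQYD libraries (SD, n = 5; log2 fold change -0.57 ± 0.15, SE; edgeR adjusted p = 0.0320 for model against control). The summed acinar level, mostly Mucl2, ran over 469606 to 953975 CPM, 243609 to 523564 CPM and 111926 to 559800 CPM in the control, model and SJQYD libraries. Per2, a gene of the circadian clock, stood at 4.34 ± 1.61, 2.64 ± 1.16 and 43.3 ± 11.0 CPM in the 3 groups, and Arntl at 23.0 ± 10.7, 11.9 ± 5.78 and 0.915 ± 0.268 CPM, and the labels give no hour of collection. The part of these differences in the members' levels was not tested.

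Summed levels of further cell types are given as ranges over the control, the model and the SJQYD libraries in turn. The 8 B cell genes ran over 0.271 to 87.0, 40.3 to 92.7 and 12.3 to 58.4 CPM, and the 9 T cell genes over 4.66 to 73.0, 20.4 to 160.5 and 8.04 to 99.8 CPM. The 8 myeloid genes ran over 99.9 to 161, 172 to 229.9 and 90.7 to 146 CPM, with 2 of 8 lower for SJQYD against model (C1qa and Itgam). The 9 granular duct genes ran over 8821 to 24409.5, 5951 to 10164 and 3605 to 13209 CPM. The 7 sublingual genes ran over 31.2 to 39853, 3225 to 31769.9 and 82.4 to 39753 CPM, with Bpifb2 at 0 in 13 libraries. Dcpp1 (10.5 to 13657 CPM over all libraries) is in both this list and the acinar list, so the 2 lists are not separate. Skeletal muscle genes, 9 in all, ran over 11.8 to 22.8, 22.7 to 38.8 and 22.1 to 39.8 CPM. Of the 7 tested, 3 were higher for model against control (Tnnt3, Ryr1 and Eno3). Eno3 made up most of the sum, with means of 13.2, 24.2 and 24.2 CPM, while Tnnt3 and Ryr1 were scarce (at most 0.454 and 0.753 CPM in any library). Of the rest, Ckm had means of 2.56, 2.45 and 2.72 CPM and Tnni2 of 0.305, 0.648 and 0.638 CPM. Of 6 genes each, the adipocyte list ran over 7.96 to 24.6, 14.7 to 251 and 14.4 to 184 CPM, the fibroblast list over 165 to 249, 154 to 254 and 81.3 to 186 CPM, and the endothelial list over 27.6 to 73.4, 34.2 to 67.9 and 36.2 to 141 CPM. None of the B cell, T cell, granular duct, parotid, sublingual, adipocyte or endothelial genes was called in any of the 3 comparisons (edgeR). Of the 50 of these genes that were tested, 9 were higher and 0 lower for model against control at an unadjusted p under 0.05, 0 higher and 2 lower for SJQYD against model, and 2 higher and 4 lower for SJQYD against control. For SJQYD against control Prlr, Itgam and Lum, a fibroblast gene, were called lower, and Tnnt3, Ryr1 and Eno3 higher.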

How the data were processed

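Per the labels, polyadenylated RNA of 15 submandibular glands was made into dUTP-marked libraries with molecular identifiers. The authors deposited whole-number gene counts for 55401 genes, and per-length FPKM values of the same libraries for the 32479 genes with a count above 0. The submitters' processing notes list, with no role or order, edgeR, DESeq2, StringTie 1.3.4d, UMI-tools, HISAT2 2.0.4 and cutadapt 1.9, so whether duplicates were removed is not given in the sources used here. The notes name build mm9, but the deposited coordinates equal GRCm38 gene records for 28337 of 32385 identifiers (87.5%; 35 of 41 members), and gene positions are printed for those members only. Other members are given by identifier. Positions of promoter pieces are those of the RefSeq windows (GRCm38.p6), not of the deposited table.

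Counts were analysed in R 4.3.3 with edgeR 4.0.16. The default expression filter left 18136 genes. One quasi-likelihood model with TMM factors (0.594 to 1.85) took in all 15 libraries, with 1 estimate of spread for the 3 groups, and F tests gave the 3 comparisons, adjusted by Benjamini-Hochberg over all genes. Adjusted p values throughout are from this test, log2 fold changes carry their SE, and CPM values their SD. On simulated data the same fit recovered 4.7% of 64 changes of 1.5-fold, 36.9% of 65 of 2-fold and 74.6% of 59 of 4-fold in the model against control comparison (17350 genes). It recovered 11.1% of 63, 48.4% of 64 and 75.8% of 62 for SJQYD against model (17486 genes), and 7.8% of 64, 35.5% of 62 and 66.7% of 63 for SJQYD against control (17509 genes). False calls were 7 of 78, 8 of 93 and 1 of 70 calls in the 3 comparisons. The changed genes were drawn from all genes tested, at any level, so these shares are not those of the members. No 2 libraries of the same group were copies (smallest chi-square per gene 70.5), and libraries of different groups were not compared in this way.

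The members and lists were chosen with earlier results of these data known. All members called were named. Values in every library were given for up to 3 members per role with the smallest p for model against control, and always for Hspa5, Xbp1, Atf6, Ern1 and Eif2ak3, and for other called members after their values were seen. Of the other genes of the compartment up to 4 per comparison were named by smallest p. Alternatives were RLE and upper quartile factors, library totals alone, no filter, a filter at 1 CPM in 5 libraries, DESeq2 1.42.0, limma 3.58.1 on log2(FPKM + 1) and log2(FPKM + 0.1) of genes with at least 0.5 FPKM in 5 libraries, only the groups compared, each library left out in turn, and a replicate block. Promoter windows came from RefSeq.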

Additional observations from a re-analysis of the deposited data

Results flagged for a closer look

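In each group of 5 libraries, a member was marked where the gap between its highest or lowest library and the nearest other library exceeded 0.71 of the group's range. Of 123 such sets 7 were marked, where chance alone marks about 1 in 20. SJQYD 1 was the highest library in 3 of them: Derl1 at 37.9 CPM (next 32.5), Edem1 at 73.7 CPM (next 49.9) and Ssr1 at 84.3 CPM (next 75.1). The others each came from a different library. Dnajc3 was lowest in control 2, at 74.0 CPM against 101 or more in the other controls. Herpud1 was highest in control 3, at 121 CPM (next 98.7), and Spcs3 in control 1, at 77.0 CPM (next 54.4). Eif2ak3 was highest in model 4, at 33.1 CPM (next 17.5).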

How the results depend on the processing

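For model against control (13 called) library totals alone gave 0, limma on log2(FPKM + 1) 0 and on log2(FPKM + 0.1) 0, each with 1 higher and 0 lower at an unadjusted p under 0.05, against 15 by DESeq2, and a fit of only the 2 groups gave 7. For SJQYD against model (10 called) the same 3 scales gave 1, 1 and 1, and leaving out the 3 libraries richest in parotid transcripts, chosen after seeing the data, gave 4. For SJQYD against control (8 called) the 3 scales gave 14, 13 and 13, and without those 3 libraries 8 were called, now 2 higher and 6 lower. Leaving out 1 library in turn gave 4 to 18, 7 to 11 and 2 to 11 members, and in the last case, without control 2, more were lower than higher. These counts, and those of the other genes below, stand without the number of all genes called in the same fit. Whether they moved apart from that number is therefore not shown. The cause was not tested.

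On the same 3 scales (totals, FPKM + 1, FPKM + 0.1) the members' median turned positive for model against control (0.073, 0.052, 0.054) and SJQYD against control (0.50, 0.40, 0.44), as the median of all genes rose to 0.52, 0.28, 0.45 and 0.63, 0.33, 0.54. For model against control so did Syvn1 (0.044, 0.026, 0.029), Xbp1 (0.24, 0.17, 0.18) and Atf6 (0.11, 0.033, 0.034). For SJQYD against control so did Hspa5 (0.29, 0.20, 0.21), Os9 (0.20, 0.13, 0.14), Atf6 (0.31, 0.13, 0.19), Ern1 (0.38, 0.24, 0.33) and Eif2ak3 (0.35, 0.23, 0.28), and Dnajc3 with totals alone (0.075). Atf6 ran from -0.079 (without model 5) to 0.22 (without model 4) for SJQYD against model. In the list of other genes the medians turned to 0.24, 0.16 and 0.22 for model against control and 0.48, 0.33 and 0.41 for SJQYD against control. The calls there were 3 and 4 with FPKM (model against control), 33, 27 and 28 on the 3 scales (SJQYD against control), and 12 to 28 in the latter when 1 library was left out, with more higher than lower without control 1 (14) or SJQYD 1 (15). Values of single genes were followed for the members called, for Hspa5, Xbp1, Atf6, Ern1 and Eif2ak3, and for the other genes of the compartment that are named. Of these values 1186 stayed on their side of the threshold, 235 lost the call, 7 gained it and 28 changed sign. Most were called at the start and could not gain a call, and a change of sign was counted ahead of a lost call.

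With the replicate number as a block 11, 8 and 9 members were called, and Sdf2l1, Pdia3 and Ern1 (model against control), Creld2 and Pdia3 (SJQYD against model) and Os9 (SJQYD against control) lost their calls. Dnajb9 (model against control, lower) and Canx and Ssr3 (SJQYD against control, lower) gained one. The labels do not say whether equal numbers pair the libraries. Of 15 same-number pairs, 2 correlated above 0.1 (-0.23 to 0.16), and 4 of 15 libraries correlated best with their own number. These correlations cannot decide it, because libraries also differed in their content of parotid and sublingual transcripts. The lowest count of any member in any library was 318 (Dnajb9 in model 5).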
